A study of Mus musculus with 4 samples.

Results

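The genes of the interferon regulatory factors (IRF) Irf1, Irf2, Irf3, Irf4, Irf5, Irf7, Irf8 and Irf9 were examined for Runx3 binding in splenic CD4+ dendritic cells (DC). A Runx3 peak was taken as a member when its centre lay in the body of 1 of these 8 genes or within 100 kb of it, on the mouse assembly mm9 with GENCODE M1 genes. This gave 57 of the 15121 peaks of the deposited list. Runx3 chromatin immunoprecipitation followed by sequencing (ChIP-seq) was performed on CD11chiMHCII+CD4+ conventional DC, sorted by flow cytometry from spleens. About 15 mice are given for each sample, and the study describes the 2 experiments as biological replicates. The samples are 2 Runx3 immunoprecipitates made with a polyclonal antibody raised in the authors' laboratory and 2 input controls of whole cell extract chromatin. The strain label is C57BL/6 for 3 samples and C57BL/7 for the second input, and no age, treatment or genetic change is labelled for any sample, so all of them stand for a single, unperturbed cell population. The deposited file is 1 MACS2 list for the series, and the methods name the reads of the immunoprecipitates and of the inputs only as combined totals. Peaks therefore have no value per replicate, no spread can be given, and none of the differences below was tested. The score is the number MACS2 wrote for each peak, in a unit that is not stated, and it was compared only within the list. Reads per peak and per sample were not analysed here, and the absence of a peak means that none was called at this depth. No RNA was measured in these samples, so the sorted cell type could not be checked against its marker genes.

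IRF proteins share a DNA-binding domain that recognizes GAAA repeats. Irf3, Irf5 and Irf7 are activated by phosphorylation downstream of pattern recognition receptors and induce interferon genes, Irf9 acts in the response to type I interferon, and Irf1 and Irf2 act on overlapping sites as an activator and, mostly, a repressor. Irf4 and Irf8 bind DNA weakly alone and pair with PU.1, SpiB or BATF-containing AP-1 dimers. In the spleen Irf4 is a factor of CD4+/CD11b+ DC and Irf8 of CD8+ DC. Runx3 is a RUNX transcription factor, whose core site is the hexamer TGTGGT.

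The sequences below are those on which the comparison of Irf4 with Irf8 and the account of the promoter and strongest peaks rest. Each is the mm9 sequence around the RUNX hexamer nearest to the peak centre, cut to 30 bases where an exon is near. The Irf2 and Irf9 promoter peaks and the Irf2 intron 6 peak hold no RUNX hexamer. For the Irf2 promoter the sequence is taken around its IRF elements, and for the other two around the peak centre, with no capitals. Capitals mark TGTGGT or TGCGGT on either strand (ACCACA and ACCGCA are their reverse complements), except in the Irf2 promoter line, where they mark a PU.1-IRF composite element (GGAA, 2 bases, GAAA) that runs into an interferon-stimulated response element (GAAA, 2 bases, GAAA).
Irf4 upstream peak, 46.9 kb from the TSS, chr13:30794168-30794288, plus strand: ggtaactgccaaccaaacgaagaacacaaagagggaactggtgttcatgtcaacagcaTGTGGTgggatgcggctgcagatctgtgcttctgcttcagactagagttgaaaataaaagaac
Irf4 upstream peak, 51.2 kb from the TSS, chr13:30789929-30790049, plus strand: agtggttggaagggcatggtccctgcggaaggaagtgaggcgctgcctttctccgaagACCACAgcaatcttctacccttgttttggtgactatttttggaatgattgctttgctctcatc
Irf8 upstream peak, 34.3 kb from the TSS, chr8:123226006-123226126, plus strand: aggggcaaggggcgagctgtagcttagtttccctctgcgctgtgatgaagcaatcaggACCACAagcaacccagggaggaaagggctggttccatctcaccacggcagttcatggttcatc
Irf8 upstream peak, 50.1 kb from the TSS, chr8:123210173-123210293, plus strand: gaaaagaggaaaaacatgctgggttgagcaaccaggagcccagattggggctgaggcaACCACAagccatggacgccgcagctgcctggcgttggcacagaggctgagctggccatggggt
Irf1 upstream peak, 6.23 kb from the TSS, chr11:53577040-53577160, plus strand: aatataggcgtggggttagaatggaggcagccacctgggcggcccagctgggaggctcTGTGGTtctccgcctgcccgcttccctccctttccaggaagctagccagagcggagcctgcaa
Irf1 downstream peak, 25.1 kb from the TSS, chr11:53608509-53608629, plus strand: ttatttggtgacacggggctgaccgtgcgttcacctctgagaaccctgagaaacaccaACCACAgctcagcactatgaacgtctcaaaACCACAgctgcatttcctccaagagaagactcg
Irf5 upstream peak, 9.29 kb from the TSS, chr6:29467304-29467424, plus strand: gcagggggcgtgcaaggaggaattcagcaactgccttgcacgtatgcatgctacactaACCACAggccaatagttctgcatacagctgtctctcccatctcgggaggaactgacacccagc
Irf3 promoter peak, chr7:52252969-52252998, plus strand: ggagccttctttTGCGGTcatttgcatatg
Irf7 gene body peak, chr7:148450879-148450908, plus strand: ctagtttcaaaaACCACAaatcaaaccatt
Irf2 promoter peak, chr8:47824845-47824874, plus strand: gacgtggGGAAGTGAAAATGAAAttgactt
Irf2 intron 6 peak, strongest of its window, chr8:47904421-47904541, plus strand: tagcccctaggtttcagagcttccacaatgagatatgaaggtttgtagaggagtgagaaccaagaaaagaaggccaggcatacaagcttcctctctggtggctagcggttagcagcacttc
Irf9 promoter peak, chr14:56222904-56222933, plus strand: actgaggctgcttccctctggtggtaaccg
Strongest peak of the Irf9 window, at Tm9sf1, chr14:56262395-56262424, plus strand: ccggcgagcagcACCGCAgcccggacacgt

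Each of the 8 IRF genes had at least 1 peak within 100 kb. The same was found for 72.1% of the 22367 protein-coding genes, so that a peak at this distance is common. Irf9 had 11 peaks, Irf3 had 10, Irf2 had 9, Irf1 and Irf4 had 8 each, Irf7 had 6, Irf5 had 3 and Irf8 had 2. The median was 8 peaks for the IRF genes and 2 for all protein-coding genes, and Irf8 was the IRF gene at that overall median. Windows differed in length and in gene content. That of Irf2 spans 308 kb because the gene is long, and the others span 204 to 220 kb. Beside the IRF gene, the windows of Irf9, Irf7 and Irf3 hold the TSS of 18, 12 and 11 further protein-coding genes, those of Irf1 and Irf5 hold 5 each, that of Irf8 holds 2, that of Irf4 holds 1 and that of Irf2 none (median of all protein-coding genes, 4).

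**Figure D1:**
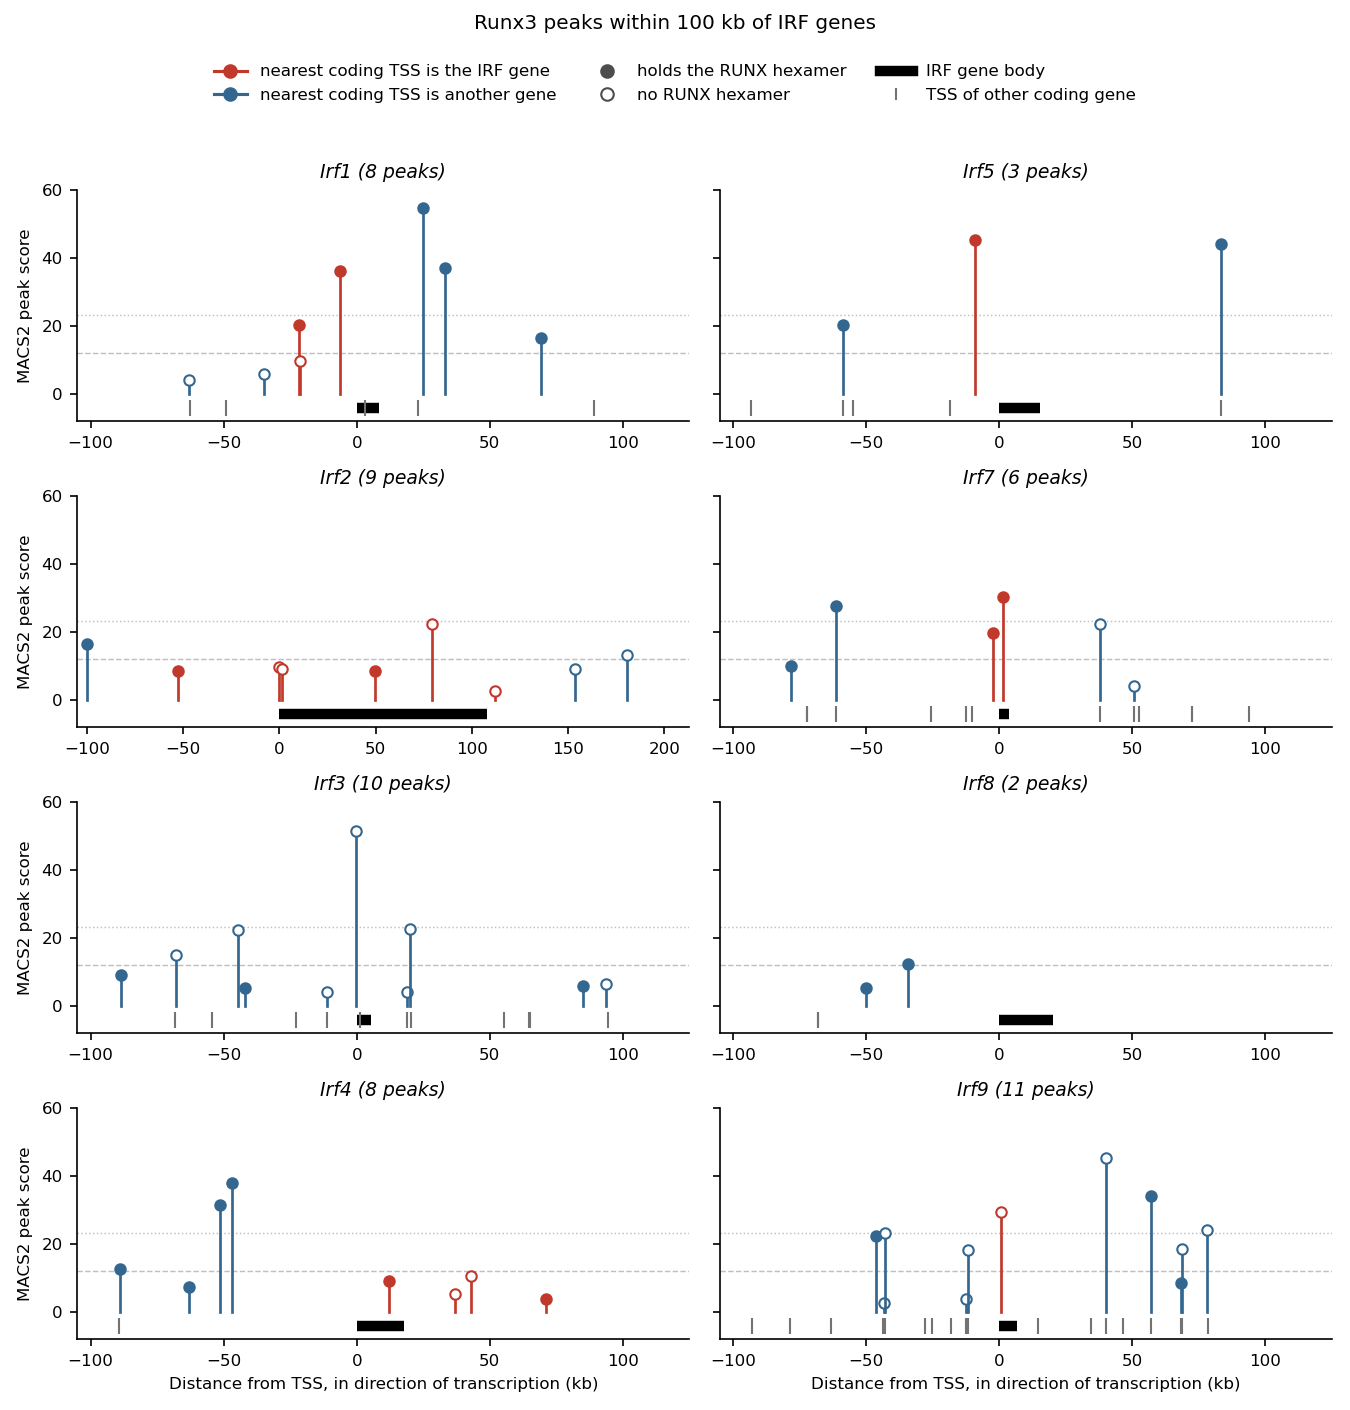
Runx3 peaks around each IRF gene. The x axis is the distance from the IRF TSS in kb in the direction of transcription and the y axis the MACS2 peak score; lines with points are single peaks, red where the nearest protein-coding TSS is that of the IRF gene and blue where it is that of another gene, filled where the peak holds TGTGGT, the RUNX hexamer of the legend. Black bars are IRF gene bodies, grey ticks the 5′ ends of other protein-coding genes, and grey lines the median (12.1, dashed) and upper quartile (23.2, dotted) of all scores. Blue peaks outnumber red ones 40 to 17, and Irf3 and Irf8 have no red peak. The blue peak 85 bp from the Irf3 TSS is 1 bp from a Bcl2l12 TSS.

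Most of these peaks lay closer to another gene. The nearest protein-coding TSS was that of the IRF gene for 17 of the 57 peaks and that of 1 of 29 other genes for 40. At least 1 peak had its nearest TSS at Irf2 (6 peaks), Irf4 (4), Irf1 (3), Irf7 (2), Irf5 (1) and Irf9 (1). That is 6 of the 8 IRF genes, and 36.5% of all protein-coding genes passed this rule. Of the 57 peaks, 27 (47.4%) lay within 1 kb of a protein-coding TSS, against 36.3% of all peaks. The windows with the most further genes held most of the 27, with 10 at Irf9, 7 at Irf3 and 4 at Irf7. Irf1 and Irf5 had 2 each, Irf2 and Irf4 had 1 each and Irf8 had none. For 24 of the 27 the nearest TSS was that of a neighbouring gene. The 24 include the peak 85 bp from the Irf3 TSS, which is 1 bp from a TSS of Bcl2l12. By score the IRF peaks were close to the list as a whole, with a median of 13.1 against 12.1 and a range of 2.67 to 54.7. At or above the overall median lay 31 of them (54.4%, against 50.0%), and 15 (26.3%, against 25.4%) were in the upper quartile. Peaks nearest to the IRF gene itself had a median score of 9.84 and peaks nearest to a neighbour one of 15.7. The median width was 405 bp, against 406 bp in the whole list.

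At some loci peaks lie on both sides of the 100 kb limit and not far from it. The member farthest from its gene was 99.8 kb from Irf2 with a score of 16.5, and the next peak there was 111 kb from the gene. Across the loci, the nearest peak left out was 104 kb from Irf7, with a score of 11.2. At Irf8 the outermost member lay 50.1 kb from the gene and the next peak 147 kb from it.

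**Figure D2:**
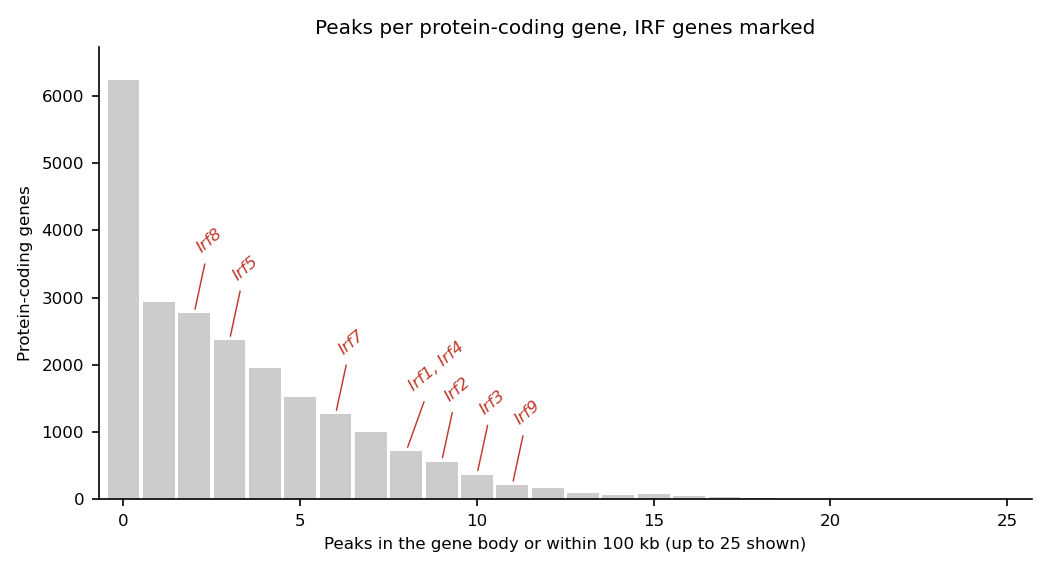
Number of peaks per protein-coding gene. The x axis is the number of Runx3 peaks in the gene body or within 100 kb and the y axis the number of protein-coding genes with that number; red lines mark the bars in which the IRF genes fall. Irf8 lies at the median of 2, and Irf9, with 11 peaks, lies above 96.8% of the genes.

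Irf4 and Irf8, which are related factors with opposite use in the splenic DC subsets, differed in the number, position and score of their peaks. Irf4 (chromosome 13, 30841095 to 30858796, plus strand) had 8 peaks in a window of 218 kb, more than 89.5% of protein-coding genes. Irf8 (chromosome 8, 123260258 to 123280594, plus strand) had 2 in a window of 220 kb, more than 41.0% of them. Within 200 kb of the TSS the counts were 14 and 5. Neither gene had a peak within 10 kb of its TSS.

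At Irf4, 4 peaks lay upstream, 1 in the gene and 3 beyond its end. The strongest, from 30793860 to 30794435, was centred 46948 bp upstream, scored 38.1 (percentile 88.1 of the list) and holds TGTGGT 2 times. Its neighbour, from 30789625 to 30790144, was centred 51211 bp upstream, scored 31.4 (percentile 84.0) and holds TGTGGT once. Both lie in intron 4 of Dusp22, a dual-specificity phosphatase gene, and both are 37905 bp or more from the Dusp22 TSS. These are the only Irf4 peaks in the upper quartile of scores. The other upstream peaks, from 30777911 to 30778232 in intron 3 of Dusp22 and from 30752081 to 30752473 in its intron 1, scored 7.20 and 12.7. The latter is centred 298 bp from the Dusp22 TSS, so that it sits at the promoter of the neighbour.

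The peak inside Irf4, from 30853223 to 30853589, covers exon 8 and has its centre in intron 8. It was centred 12311 bp downstream of the TSS, scored 9.16 (percentile 35.3) and holds TGTGGT once. It is the peak nearest to the Irf4 TSS, and 36.2% of protein-coding genes have a nearer one. Beyond the gene end the peaks from 30877999 to 30878340 and from 30884000 to 30884391 scored 5.36 and 10.5 and hold no RUNX hexamer. The last, from 30911937 to 30912189 in intron 26 of Exoc2, an exocyst subunit gene, scored 3.69 and has TGTGGT 8 bp from its centre. All 4 peaks whose nearest TSS is that of Irf4 thus scored below the overall median, and the peaks of the upper quartile lay upstream, in Dusp22. TGTGGT was present in 6 of the 8 Irf4 peaks, including the 4 upstream ones. It is common in the list, in 54.0% of all peaks and 65.7% of those more than 1 kb from a protein-coding TSS.

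At Irf8 both peaks lay upstream and none was called in the gene or in the 100 kb beyond its end. The peak from 123225656 to 123226202 was centred 34329 bp upstream, scored 12.4 (percentile 50.1) and holds TGTGGT once, 137 bp from its centre. The peak from 123210015 to 123210397 was centred 50052 bp upstream and scored 5.36 (percentile 12.4). Its TGTGGT lies 27 bp from the centre. Both are between the Irf8 TSS and that of Cox4i1, a cytochrome c oxidase subunit gene, and the latter is the nearest protein-coding TSS to each, at 33739 bp for the stronger peak and 18016 bp for the weaker one. The stronger peak thus lay almost midway between the genes. Both positions, and Irf8 itself, are also covered by Gm20388, a gene model that runs through many genes of the region.

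Downstream of Irf8, where distal enhancers of this gene are known in other DC subsets and in progenitors, the list holds a long interval without a peak. The first peak after the Irf8 TSS, from 123632131 to 123632527, lay 372 kb away, 37 bp from the TSS of Mthfsd, and scored 10.5. From the last peak before the TSS to this one the interval is 406 kb, longer than 92.0% of the 15101 intervals between neighbouring peaks, whose median is 34.1 kb. The interval around the Irf4 TSS is 59.3 kb, longer than 63.2% of the intervals. A long interval covers more genes by its length, so these percentiles describe the loci and are no measure of how rare they are among genes.

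**Figure D3:**
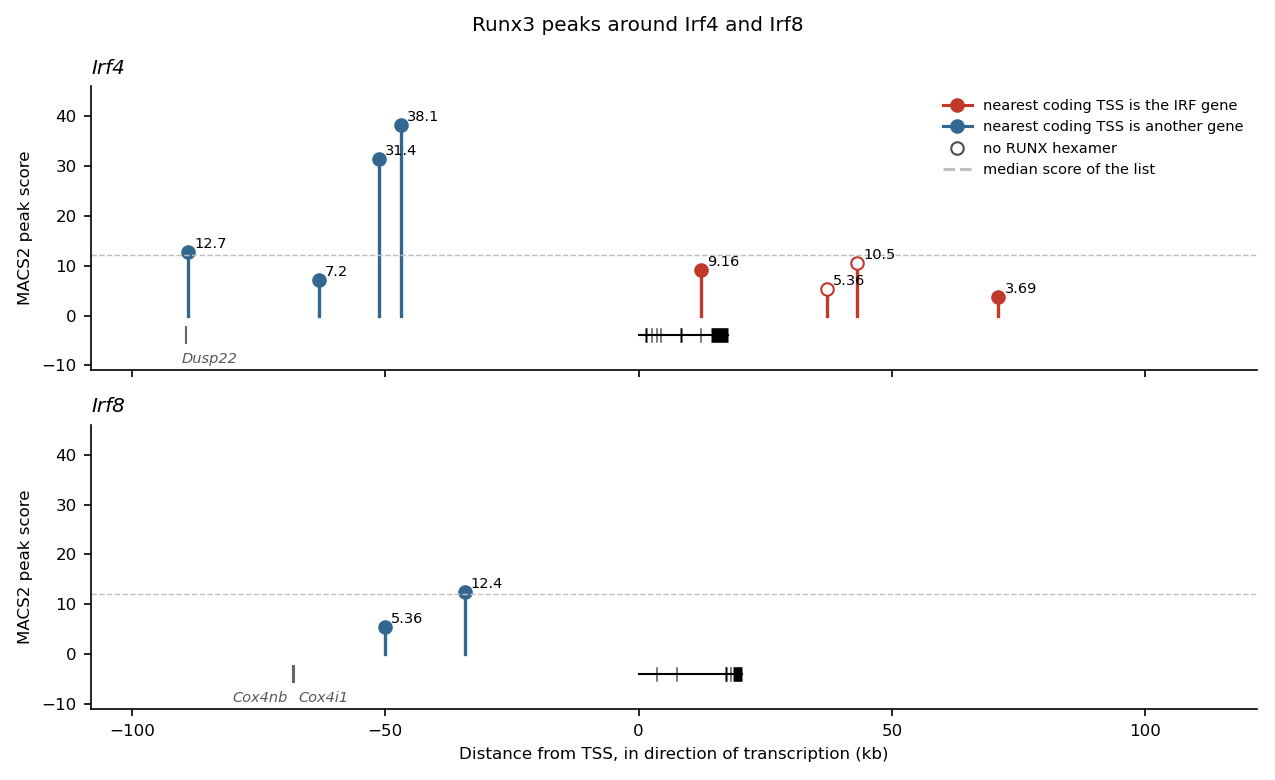
Runx3 peaks at Irf4 (top) and Irf8 (bottom). The x axis is the distance from the TSS in kb in the direction of transcription and the y axis the MACS2 peak score, printed beside each peak; black boxes are exons, grey ticks the 5′ ends of other protein-coding genes, the dashed line is the median score of the list, and open points are peaks without TGTGGT, the RUNX hexamer of the legend. The 2 strongest Irf4 peaks (31.4 and 38.1) lie upstream in Dusp22, while Irf8 has 2 upstream peaks (5.36 and 12.4) and none in or beyond the gene.

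Promoter peaks, within 1 kb of any TSS of the gene, were found for Irf2, Irf3, Irf7 and Irf9, which is 4 of the 8 IRF genes, against 24.9% of protein-coding genes. Irf1, Irf4, Irf5 and Irf8 had none. The peak at Irf3 (chromosome 7, 52252554 to 52253312) was the strongest of the 4, with a score of 51.5 (percentile 93.3). It lies over the shared promoter of Irf3 and Bcl2l12, a gene of the Bcl2 family on the opposite strand, 85 bp upstream of the first Irf3 TSS and 1 bp from a Bcl2l12 TSS. It has no TGTGGT and 1 TGCGGT, 50 bp from its centre. The other 9 peaks of the Irf3 window all lay closest to the TSS of another gene, among them Prmt1, Scaf1 and Rras, and 6 of them were within 1 kb of it.

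Irf9 (chromosome 14, 56222408 to 56228867, plus strand) had a peak over its promoter from 56222675 to 56223162, with a score of 29.5 (percentile 81.7), in exon 1 and 96 bp from the nearest Irf9 TSS. This was the only one of its 11 peaks for which the Irf9 TSS was the nearest. It holds neither RUNX hexamer and has 1 STAT element (TTCNNNGAA). The other 10 were at neighbouring genes, 9 of them within 1 kb of a TSS. The strongest scored 45.2, 10 bp from the TSS of Tm9sf1. The promoters of the proteasome activator gene Psme2 and of Rnf31, a subunit gene of the linear ubiquitin ligase, had peaks with scores of 3.69 and 18.1.

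Irf7 (chromosome 7, 148448605 to 148452380, minus strand) had 2 peaks of its own. That from 148450426 to 148451281 scored 30.4 (percentile 82.6) and is the strongest in its window. It spans several exons of the longest coding transcript and has its centre in intron 4. It was centred 1527 bp downstream of the first Irf7 TSS and 177 bp from the TSS of a shorter transcript, and has TGTGGT 40 bp from its centre. The peak from 148454677 to 148455221 was centred 2569 bp upstream, scored 19.8 and holds TGTGGT 2 times. The remaining 4 peaks of the window scored 4.23 to 27.6 and lay at Rassf7, Phrf1, Tmem80 and Eps8l2.

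Irf2 (chromosome 8, 47825099 to 47932812, plus strand) had the most peaks nearest to its own TSS, 6, and 3 inside the gene, a long one. The peak at its promoter, from 47824655 to 47824973, scored 9.84 (percentile 38.7). It was centred 285 bp upstream of the Irf2 TSS and 55 bp from the TSS of Gm16675, a gene not annotated as protein-coding. It holds no RUNX hexamer. Its sequence has the overlapping PU.1-IRF and interferon-stimulated response elements printed above. A peak in intron 1, from 47826400 to 47826685, scored 9.16. In intron 6, the region 47904304 to 47904659 had the top score of the window, 22.3 (percentile 73.4), with neither TGTGGT nor TGCGGT in its sequence. No Irf2 peak reached the upper quartile of scores, although only Irf9 and Irf3 had more peaks. A peak in the body of the gene was found for Irf2, Irf4, Irf7 and Irf9, and for 23.2% of protein-coding genes.

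Irf1 (chromosome 11, 53583516 to 53591876, plus strand) had no peak in the gene or within 1 kb of a TSS. Its nearest peak, from 53576823 to 53577753, was centred 6228 bp upstream, is 931 bp wide and scored 36.1 (percentile 86.9), with 1 TGTGGT and 1 STAT element. A pair of weaker peaks lay 21867 and 21153 bp upstream, with scores of 20.3 and 9.62. The stronger of the pair holds TGTGGT 2 times and 1 PU.1-IRF element. Downstream, the peak from 53608115 to 53609046 scored 54.7 (percentile 94.2), the highest score of all 57 peaks. It lies 25064 bp from the Irf1 TSS and 797 bp from a TSS of the predicted gene Gm12216. A second peak in Gm12216, from 53616454 to 53617144, scored 37.1, and both hold TGTGGT 2 times.

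Irf5 (chromosome 6, 29476625 to 29491869, plus strand) had few peaks, each with a score above the overall median. The peak from 29467072 to 29467605, centred 9287 bp upstream between genes, scored 45.5 (percentile 91.5). It has TGTGGT 3 times and TGCGGT once, more RUNX hexamers than any other of the 57. The others were at the TSS of Tnpo3, a nuclear import receptor gene, with a score of 44.2, and of Atp6v1f, a proton pump subunit gene, with a score of 20.4. Irf5 was also among the 6 IRF genes with a peak in the upper quartile of scores within 100 kb (Irf1, Irf3, Irf4, Irf5, Irf7 and Irf9), a rule that 43.2% of protein-coding genes passed. The median of the highest score per window was 41.7 for the IRF genes and 29.1 for all protein-coding genes with a peak. More peaks give more room for a high maximum, and the median count was 8 for the IRF genes and 2 for all protein-coding genes.

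TGTGGT was found on either strand in 29 of the 57 IRF peaks (50.9%, Wilson 95% interval 38.3% to 63.4%), against 54.0% of all peaks. Intervals cover counting error only. With position taken into account the shares were also close, with 9 of 27 peaks (33.3%) within 1 kb of a protein-coding TSS, against 33.6% in the list, and 20 of 30 (66.7%) farther away, against 65.7%. TGCGGT was in 11 peaks (19.3%, against 20.1%), and 36 peaks (63.2%) had 1 or both hexamers. The median score was 16.5 for IRF peaks that hold TGTGGT and 10.2 for the others, and the median width was 439 and 349 bp. In the whole list these scores were 14.2 and 10.5. Wider peaks have more room for a match.

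Of the elements bound by partners of Irf4 and Irf8, the PU.1-IRF composite element was in 2 peaks (3.51%, Wilson 95% interval 0.968% to 11.9%, against 7.81% of all peaks), at the Irf2 promoter and upstream of Irf1. The interferon-stimulated response element was also in 2 (3.51%, against 6.48%), at the promoters of Irf2 and Psme2. The last bases of the former can be the first of the latter, as at Irf2. The AP-1 element TGANTCA was in 9 (15.8%, against 13.2%), among them 1 Irf4 peak and the stronger Irf8 peak. The STAT element was in 7 (12.3%, against 12.5%) and the zDC hexamer TGACGT in 6 (10.5%, against 11.0%). The NF-kappaB element (GGG, 2 bases, TTTCC) was in 2 (3.51%, against 4.75%), namely the strongest Irf4 peak and the weaker Irf8 peak. At 57 peaks each interval includes the share of the whole list, so no difference was detectable at this number. The IRF peaks were richer in G and C, with a median of 56.0% against 50.7%. More of them lay at promoters, mostly in the windows of Irf9, Irf3 and Irf7, as given above.

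**Figure D4:**
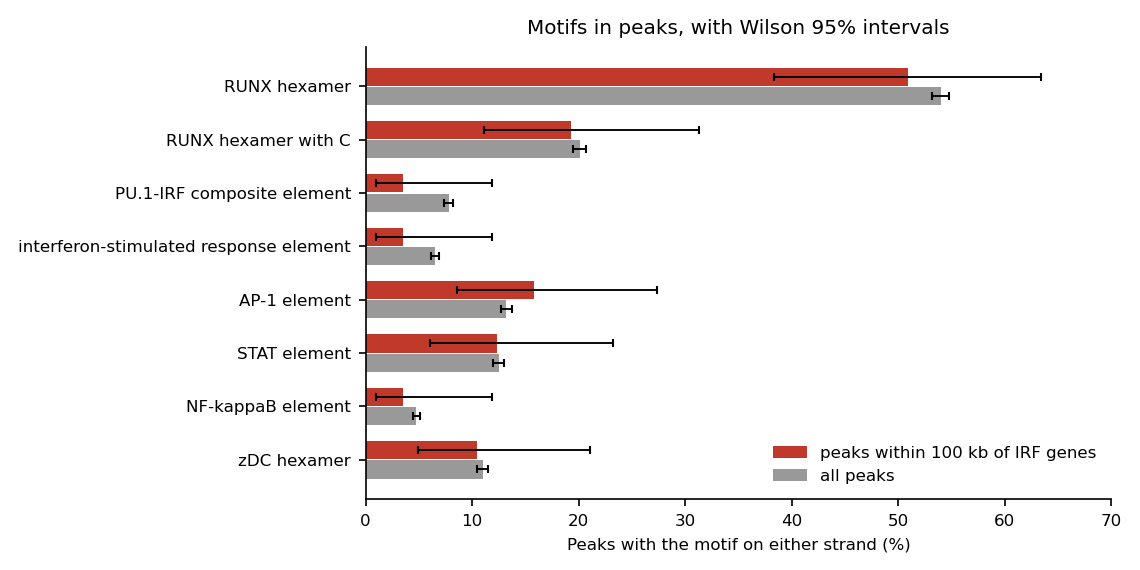
Share of peaks with each element. The x axis is the percent of peaks that hold the element on either strand, red for the 57 peaks within 100 kb of IRF genes and grey for all 15121 peaks, with Wilson 95% intervals as error bars. The grey shares lie within the red intervals for all 8 elements.

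In RefSeq promoter sequences, which run from 250 bp upstream to 50 bp downstream of a start on GRCm38.p6, all 8 IRF genes were matched, with 11 promoters. None of the 11 has TGTGGT, which 16.8% of 32851 promoters hold. TGCGGT was present for Irf3, Irf5 and Irf8 (6.45% of all promoters) and the STAT element for Irf1, Irf2 and Irf8 (8.30%). Of the genes with TGCGGT there, Irf3 had a peak at its promoter and Irf5 and Irf8 had none.

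Other genes of the pathway were counted by the same rules from a list of 58, of which Mb21d1 and Irf2bpl were matched under the older symbols E330016A19Rik and 6430527G18Rik. A peak within 100 kb was found for 57 (98.3%), against 72.1% of protein-coding genes, and a peak within 1 kb of a TSS for 31 (53.4%), against 24.9%. Trim21, a ubiquitin ligase gene, had no peak within 100 kb. Whether these shares move with expression in DC was not tested.

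The receptor, JAK and STAT genes and the DNA-binding partners stood highest by the share of genes with a promoter peak (88.9% and 81.8%). Of 9 receptor, JAK and STAT genes 8 had a peak within 1 kb of a TSS, Tyk2 being the exception. The highest of these peaks was at Ifngr2, a chain of the interferon gamma receptor, with a score of 59.1, and the highest within 100 kb lay 17636 bp from the TSS of Ifnar2, a chain of the type I interferon receptor, with a score of 108. Ifnar1, Ifnar2 and Ifngr2 are neighbours on chromosome 16, so their windows share peaks. Of the 11 partners of Irf4 or Irf8, 9 had a promoter peak, all but Spib and Ikzf1. Sfpi1, which encodes PU.1, had the strongest, with a score of 99.3 (percentile 98.9) and TGTGGT 3 times. Several promoter peaks of both groups scored below the list median of 12.1. They were those at Jak2 (5.36), Ifnar2 (5.96), Jak1 (7.2), Jun (2.19), Tcf3 (9.37), Batf (9.84) and Junb (11.0). The other promoter peaks of both groups scored above it.

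Of 10 sensor genes 5 (50.0%) had a promoter peak. The strongest, at Mb21d1, the gene of the DNA sensor cGAS, scored 29.5. The highest within 100 kb of a sensor gene scored 55.8, in the window of Tlr9 and at Poc1a. Of 12 adaptor and kinase genes 4 had a promoter peak (33.3%, near the 24.9% of protein-coding genes). The strongest, at a TSS of a shorter transcript of Chuk, an IkappaB kinase gene, scored 65.9. It lay 32180 bp from the first Chuk TSS and was also the highest within 100 kb in this group. The others, at Myd88 (5.96), Traf6 (9.16) and Tbk1 (9.84), scored below the list median. Of 9 negative regulators 5 (55.6%) had a promoter peak, led by Tnfaip3, the gene of the ubiquitin editing enzyme A20, with a score of 29.5. That Tnfaip3 peak lies inside the gene, at the TSS of another transcript and not at the first TSS. The peak at Dmwd in the window of Irf2bp1, a corepressor gene, scored 227. None of the 7 interferon genes listed had a promoter peak, and the peak with a score of 222 on chromosome 4, from 88510321 to 88511511, lies in the windows of Ifna1, Ifna4 and Ifne alike.

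**Figure D5:**
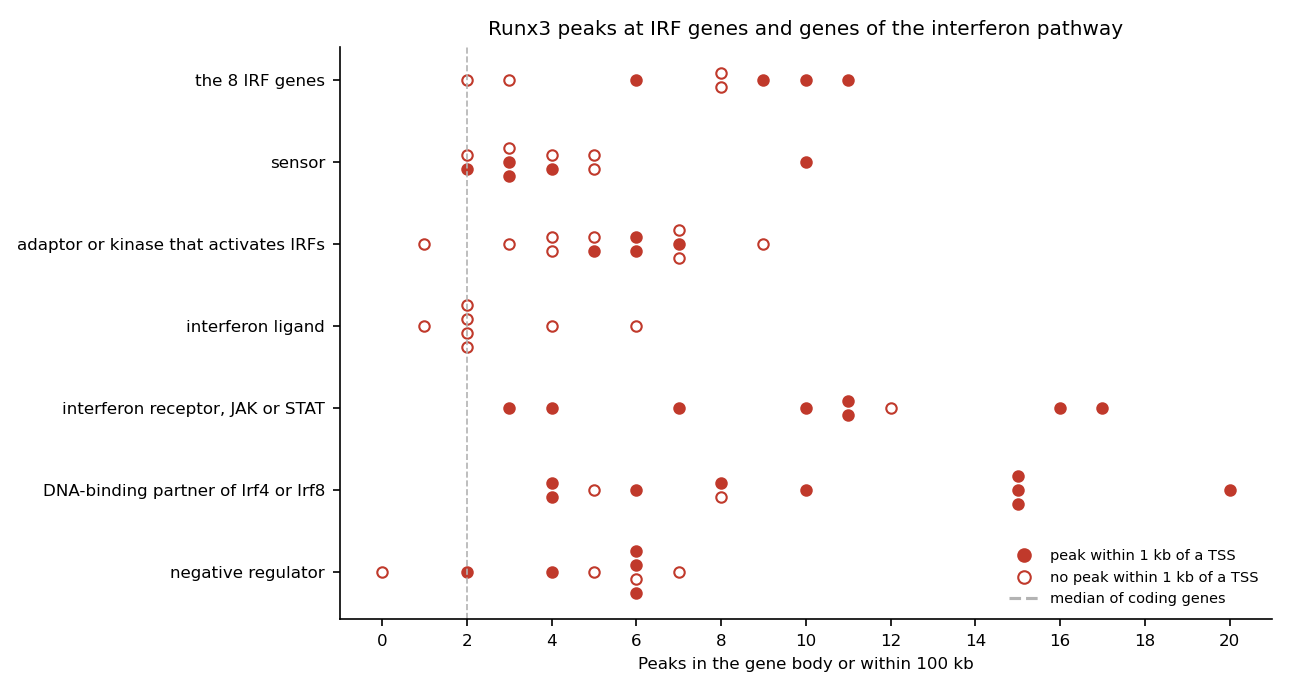
Runx3 peaks at IRF genes and other genes of the pathway, by role. The x axis is the number of peaks in the gene body or within 100 kb; each point is a gene, filled where a peak lies within 1 kb of a TSS, and the dashed line is the median of protein-coding genes (2). Filled points make up 8 of 9 receptor, JAK and STAT genes, 4 of the 8 IRF genes and none of the 7 interferon genes.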

How the data were processed

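Runx3 ChIP-seq of sorted splenic CD4+ DC was measured in 4 samples, grouped by their titles into 2 immunoprecipitates and 2 inputs. Per the study's methods, 50 bp reads were mapped uniquely to mm9 with Bowtie and MACS2 called the peaks. The deposited file holds a peak score for each region of 1 list for the series. The peak names set both immunoprecipitates against both inputs, as 1 call on all 4 samples. CASAVA 1.8 is named in the submitters' processing notes. The MACS2 threshold, the handling of duplicate reads and the unit of the score are not given in the sources used here. A stricter or looser threshold would change every count of peaks.

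Starts were counted from 1, and the peak centre was the middle base. Exons and introns are numbered in the longest coding transcript, and a peak was placed in them by its centre. Genes came from GENCODE M1 and sequence from NCBIM37, the same assembly as mm9, within whose chromosomes all peaks lay. Both strands of each whole peak were scanned for the elements. Percentiles give the share of the 15121 peaks with a lower score. All 8 IRF genes are described, with every peak of Irf4 and Irf8, and for the others the strongest peak, the strongest peak of their own and the nearest one; Gm12216, Tm9sf1 and similar genes are named as nearest genes. Of the pathway genes, those with the highest peaks in each role and those without a peak are named. Tyk2, Spib, Ikzf1 and the pathway genes named for weak promoter peaks were chosen after their values were seen. So were the further peaks described at Irf1, Irf2, Irf7 and Irf9. The members and lists were chosen with earlier results of these data known. The counting functions were tested on simulated data with known answers. With 1 list and no replicate values, no test was run, and shares have Wilson 95% intervals. Alternatives were other distances, score thresholds, assignment rules, joined peaks, any base of the peak and other hexamer rules. Python 3.11.15, numpy 2.4.6, pandas 2.3.3, scipy 1.17.1 and matplotlib 3.10.9 were used. The microarrays of the study were not analysed here.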

Additional observations from a re-analysis of the deposited data

How the results depend on the processing

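The contrast of Irf4 with Irf8 kept its direction under all 8 ways of counting peaks, and the number of IRF genes with a peak, within 100 kb or at a TSS, stayed within 1.5 times. The total of 57 peaks became 35 within 50 kb, 19 within 20 kb, 31 with scores at or above the median, 15 in the upper quartile, 17 by nearest protein-coding TSS and 20 with basal plus extension domains. In the same order Irf4 had 4, 2, 3, 2, 4 and 4 peaks and Irf8 had 1, 0, 1, 0, 0 and 0. Counting any base of the peak left the total at 57, and joining peaks closer than 300 bp gave 54, with Irf4 at 8 and Irf8 at 2 in both. The strongest Irf4 peak scored 9.16 within 20 kb and 10.5 by nearest TSS and by domains, since the peaks in Dusp22 are then left out, and no Irf8 peak was left to score. The share of peaks with TGTGGT became 37.1% within 50 kb and 36.8% within 20 kb, where peaks at those distances of any protein-coding gene had 53.1% and 52.2%. It became 66.7% in the upper quartile (65.0% of all such peaks), 40.4% in the central 200 bp (41.8% of all peaks) and 40.0% in the domains. With scores at or above the median it was 58.1%, and by nearest protein-coding TSS 52.9%. No background matched for promoters was taken for the shares by distance, and none for the domains, so these differences were not tested. These counts rest on 1 threshold of the peak caller, and depth limits how weak a peak could be called. No paired analysis was possible because the file holds 1 list with no value per replicate, and for the same reason no replicate could be left out.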
